A study of Mus musculus with 6 samples.

Results

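Collagens and laminins are the main structural proteins of the extracellular matrix, and their genes were examined in whole mouse testes at postnatal day 12 (P12). The 55 genes are all protein-coding genes whose GENCODE symbol is Col, a number, a and a number, or Lam, then a, b or c, and a number. They are 55 of the 54232 gene rows of the count table, and they comprise 44 collagen and 11 laminin genes on 17 chromosomes. By the structure of their products, 11 were classed as fibrillar collagens and 17 as basement membrane chains (6 of collagen IV and 11 of laminin). The other 27 were collagens of microfibrils, fibril surfaces, cell membranes and further networks. Of the 55 genes, 54 passed the filter on low counts and were tested, and *Col10a1*, the collagen of hypertrophic cartilage, did not.

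Bulk RNA-seq compared 3 control libraries, labelled *Dis3l2* WT, with 3 libraries labelled *Dis3l2* KO, all from testes of mice on a B6D2F1 background. DIS3L2 is a cytoplasmic exonuclease that degrades RNAs carrying a uridine tail. In the study the knockout males are *Stra8-Cre*; *Dis3l2* F/- conditional knockouts (cKO) and the controls are their littermates. The Cre acts in part of the spermatogonia from P3 and in later premeiotic germ cells, so the somatic cells of these testes were not its target. The - allele of the F/- genotype is not limited to germ cells, so the somatic cells of the knockouts carry it as well. The *Dis3l2* alleles of the controls are not given here. Levels are given as CPM (counts scaled to a total of 1e+06 per library) after TMM scaling. A gene was called when its Benjamini-Hochberg adjusted p in edgeR's quasi-likelihood test, over all 20327 genes tested, was under 0.05. The level of *Dis3l2* in these libraries showed no fall in the KO-labelled group. *Dis3l2* was at 25.8, 23.5 and 23.03 CPM in the control against 31.6, 25.4 and 27.5 CPM in KO-labelled testes and did not pass the test (log2 fold change 0.22, SE 0.11, adjusted p = 0.136). The 95% interval of this log2 fold change was -0.011 to 0.46, which holds at most a very small fall. The paper reports less *Dis3l2* mRNA by quantitative RT-PCR in cKO testes of the same age, a fall that these counts did not show. The reason for this difference was not tested. The values of the groups overlapped, and the count covers all exons of the gene and all cells of the testis. *Dis3*, a related exonuclease of the RNA exosome, was at 133, 148 and 137 CPM in the control against 59.1, 64.3 and 68.1 CPM in KO-labelled testes (log2 fold change -1.13, SE 0.084, adjusted p = 2.7e-07), every KO-labelled library lying below every control library. Germ cell markers fell as well (8 of 10 called, median log2 fold change -1.69, summed mean level 2296 against 871 CPM), and their part in the *Dis3* value was not tested. The series' design text names a *Dis3* cKO, whereas the titles of the libraries name *Dis3l2*. Which gene was deleted in these animals is not settled here. The study examined the deletion by other assays too, which are not analysed here. The group is called KO-labelled throughout.

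Fibrillar collagens assemble into the banded fibres of the interstitium, with collagen I and collagen III the bulk of them. Basement membranes are thin sheets in which a laminin network, built of trimers of an alpha, a beta and a gamma chain, is joined to a network of collagen IV. In the testis such a sheet surrounds each seminiferous tubule, and the Sertoli cells on its inner face and the peritubular myoid cells on its outer face both contribute chains to it. Spermatogonia rest on it.

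The 6 libraries held 33325483 to 44956193 counts, and the 55 genes took 0.908% to 1.33% of them. Levels of different genes are compared only per kilobase of exon (CPM per kb). Beside the lower germ cell markers, Sertoli cell markers were higher in the KO-labelled libraries (10 of 12 called, median 0.78, summed mean level 4757 against 7544 CPM). In bulk RNA, more cells of a type and more RNA per cell cannot be told apart, and a shift in one cell type moves the share of all others. Markers of the epididymis and rete testis summed to a mean of 4.15 CPM in the control and 4.28 CPM in the KO-labelled group, and *Lcn8* had no count in any library.

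The promoters of the collagen IV genes show how these genes are arranged, which the later comparison of pairs uses. The 6 genes lie head to head in 3 pairs, on opposite strands. *Col4a1* (chr8:11198423-11312826, minus strand) and *Col4a2* (chr8:11312805-11449287, plus strand) are annotated with starts that overlap by 22 bases in GRCm38. *Col4a4* (chr1:82448423-82586849) and *Col4a3* (chr1:82586921-82722059) start 72 bases apart, and *Col4a6* (chrX:141165403-141474076) and *Col4a5* (chrX:141475385-141689234) 1309 bases apart. RefSeq promoter windows (GRCm38.p6, 250 bases before to 50 bases after a start) were matched by symbol for 40 of the 55 genes. Capitals mark 3 motifs searched on both strands, the GC box GGGCGG, the CCAAT box CCAAT and the TATA box TATAAA. The 4 windows below, written 5′ to 3′ on the strand of the gene, are chr8:11312777-11313076 (minus), chr8:11312555-11312854 (plus), chrX:141475169-141475468 (plus) and chrX:141474027-141474326 (minus).
Col4a1: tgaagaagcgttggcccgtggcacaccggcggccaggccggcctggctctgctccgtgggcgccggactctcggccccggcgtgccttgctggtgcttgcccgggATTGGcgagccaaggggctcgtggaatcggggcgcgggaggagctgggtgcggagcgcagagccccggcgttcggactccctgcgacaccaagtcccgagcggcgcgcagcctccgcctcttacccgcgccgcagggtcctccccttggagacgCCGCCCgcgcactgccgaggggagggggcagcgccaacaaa
Col4a2: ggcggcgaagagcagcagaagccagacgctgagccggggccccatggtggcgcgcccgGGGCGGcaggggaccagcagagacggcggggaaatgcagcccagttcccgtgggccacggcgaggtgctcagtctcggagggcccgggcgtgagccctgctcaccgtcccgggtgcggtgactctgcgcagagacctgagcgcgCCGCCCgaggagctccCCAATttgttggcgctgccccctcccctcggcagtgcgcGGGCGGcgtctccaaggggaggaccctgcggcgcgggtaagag
Col4a5: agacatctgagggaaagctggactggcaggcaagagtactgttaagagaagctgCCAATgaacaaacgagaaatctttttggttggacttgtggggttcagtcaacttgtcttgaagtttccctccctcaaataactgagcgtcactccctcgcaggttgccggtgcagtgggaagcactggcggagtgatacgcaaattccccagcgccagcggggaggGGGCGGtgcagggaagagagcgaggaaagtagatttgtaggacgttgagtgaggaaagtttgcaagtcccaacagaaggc
Col4a6: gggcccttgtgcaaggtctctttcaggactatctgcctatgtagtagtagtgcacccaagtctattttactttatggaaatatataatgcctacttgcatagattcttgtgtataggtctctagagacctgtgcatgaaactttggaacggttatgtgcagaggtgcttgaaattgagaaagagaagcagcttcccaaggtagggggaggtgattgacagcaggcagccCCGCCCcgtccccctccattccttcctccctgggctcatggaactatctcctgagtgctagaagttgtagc
The first pair of windows shares 78 bases, and in it lies a GC box that both windows print, once on each strand. GC content was 74.0% and 73.7% in the *Col4a1* and *Col4a2* windows and 52.7% and 48.3% in those of *Col4a5* and *Col4a6*. None of the 4 windows held TATAAA, nor did any of the 10 basement membrane windows matched. Among all 32851 windows listed there, TATAAA was in 13.6%, the GC box in 35.7% and the CCAAT box in 37.4%. Those windows belong to 27025 symbols, some with several windows, whereas each collagen or laminin gene entered only with its first listed window. The shares are thus of unlike sets. Among the 40 windows of the collagen and laminin genes, 5 held TATAAA (12.5%), 25 the GC box (62.5%) and 13 the CCAAT box (32.5%). For the fibrillar collagens these were 2, 6 and 3 of 8 windows, and for the basement membrane chains 0, 7 and 4 of 10. These matches are a description of the letters only.

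Of the 54 genes tested, 21 were called higher in the KO-labelled libraries, 3 were called lower and 30 were not called. Over all genes tested, 16.2% were called higher and 16.5% lower (32.7% in either direction), so that the 38.9% called higher lay above the background and the 5.56% called lower below it. The median log2 fold change of the 54 genes was 0.27, against -0.02 for all genes, and 40 of the 54 were above 0. Among protein-coding genes alone, the background was 20.2% higher and 17.9% lower. The classes differed in their counts. Of the basement membrane chains 12 of 17 rose and none fell (median 0.39), of the fibrillar collagens 1 of 11 rose and none fell (median 0.20), and of the other collagens 8 of 26 rose and 3 fell (median 0.19). The difference between classes was described by these counts and was not itself tested. At an unadjusted p under 0.05, 1 basement membrane chain (*Lama5*) and 0 fibrillar collagens were lower in edgeR, and DESeq2 called 0 of either. The plot of fold changes shows them with their intervals.

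**Figure D1:**
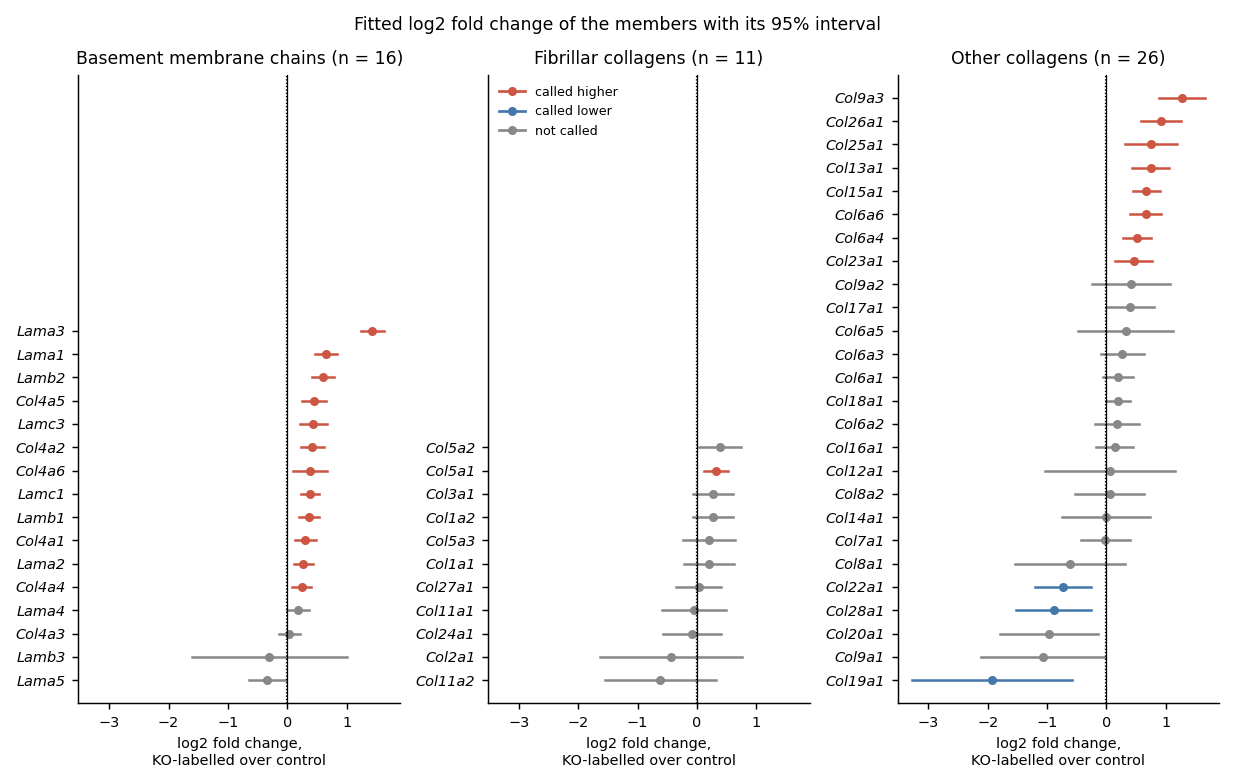
Each point is the fitted log2 fold change of 1 gene, KO-labelled over control, with its 95% interval, in 3 panels by class; red genes were called higher, blue genes lower and grey genes were not called, and the dotted line marks the median of all genes (-0.02). The basement membrane panel shows 16 of the 17 chains and is red in 12 rows, while in the fibrillar panel only *Col5a1* is red.

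The scaling of the libraries set where 0 lies on the scale of these changes. A somatic scale was taken from the summed counts of marker genes of 6 kinds of somatic cell. Sertoli markers were the largest part of it (mean 4757 CPM in the control), followed by stromal (1945) and peritubular myoid markers (1300). When this sum set the scale instead of all genes, the median of all genes moved to -0.51. The median of the 54 genes moved with it to -0.23, 0.28 above that of all genes, against 0.29 above it under TMM. Scaled to Sertoli markers alone, the medians were -0.69 for all genes and -0.40 for the 54. Relative to all genes the basement membrane chains lay 0.41, 0.40 and 0.41 above under the 3 scalings and the fibrillar collagens 0.23, 0.21 and 0.22 above. Rescaling shifts the log2 fold change of every gene by nearly the same amount. These distances are therefore kept by construction and test nothing. Such a shift turns the sign of any gene whose change lies between 0 and the shift, which were 29 of the 54 genes (53.7%, against 34.7% of all genes) under somatic and 34 (63%, against 41.2%) under Sertoli scaling. Only *Lama3*, *Col9a3* and *Col26a1* were called higher under somatic scaling, and only *Lama3* and *Col9a3* under Sertoli scaling, against 1.62% and 0.748% of all genes. Called lower were 16 of the 54 (29.6%, against 49.6% of all genes) under somatic and 29 (53.7%, against 63.9%) under Sertoli scaling. The changes below are those under TMM, relative to all genes. A rise below is thus a rise in TMM-scaled CPM, which is not the plain share of the counts. The TMM factors were 1.04, 1.01 and 1.06 in the control and 0.969, 0.953 and 0.959 in the KO-labelled libraries. They make a rise larger, and a fall smaller, than in the plain share.

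**Figure D2:**
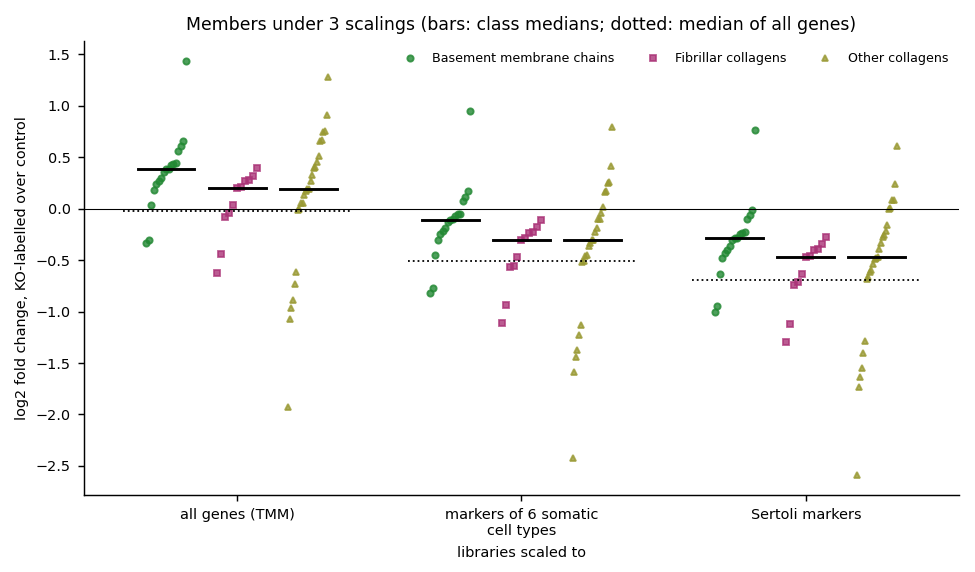
Log2 fold changes (KO-labelled over control) of the 54 genes tested, by class, with the libraries scaled to all genes, to markers of 6 somatic cell types or to Sertoli markers; black bars are class medians and dotted lines the median of all genes. The median of the basement membrane chains went from 0.39 to -0.11 and -0.28, and its distance above the dotted line is kept by construction.

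The laminin alpha chains set the receptor binding of a trimer, and their values differed widely. *Lama3*, an alpha chain of epithelial laminin, was at 29.2, 27.5 and 27.8 CPM in the control against 70.2, 76.2 and 81.02 CPM in KO-labelled testes. The groups were far apart, and the libraries of each group lay close together. Its log2 fold change of 1.43 (SE 0.09, adjusted p = 5.81e-08) was the largest rise of the 54, while *Col19a1* had the largest fall (-1.92). Its level per length remained modest, 2.62 in the control and 7.06 CPM per kb in the KO-labelled group, rank 23 of 55. *Lamb3*, a laminin beta chain of epithelial basement membranes, was at a low level, 0.749, 0.635 and 0.182 CPM in the control against 0.303, 0.630 and 0.314 CPM in KO-labelled testes, and was not called (log2 fold change -0.31, adjusted p = 0.742).

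*Lama1*, the alpha chain of laminin-111, the first laminin of embryonic basement membranes, was at 113, 111 and 120.4 CPM in the control against 162, 194 and 187 CPM in KO-labelled testes. It rose (log2 fold change 0.65, SE 0.085, adjusted p = 4.5e-05) with no overlap between the groups. *Lama2*, the alpha chain of muscle laminin, was the most abundant alpha chain per length (29.1 in the control and 34.97 CPM per kb in the KO-labelled group). Its counts were 485, 469 and 470.2 CPM in the control against 544, 603 and 567 CPM in KO-labelled testes, and it rose less (log2 fold change 0.27, SE 0.076, adjusted p = 0.0139). The ratio of *Lama2* to *Lama1*, per length, was 2.50, 2.46 and 2.28 in the control against 1.96, 1.82 and 1.76 in KO-labelled testes. The groups did not overlap (two-sided exact permutation test, p = 0.1, the smallest that 3 against 3 libraries allow, and 0.217 after adjustment over 13 ratios). These were ratios of partner chains or of alternative and related chains. In 6 of them the groups did not overlap, and several of the 6 share *Lama1* as the denominator.

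*Lama4*, the alpha chain of vessels, was at 48.6, 43.1 and 49.1 CPM in the control against 54.5, 52.5 and 53.1 CPM in KO-labelled testes and was not called (log2 fold change 0.18, adjusted p = 0.122), although its groups did not overlap. *Lama5*, the widespread alpha chain of mature basement membranes, was the only laminin chain besides *Lamb3* with a fold change below 0. It was at 32.5, 24.7 and 33.2 CPM in the control against 22.4, 20.3 and 28.8 CPM in KO-labelled testes, with overlapping groups (log2 fold change -0.34, adjusted p = 0.0855). The ratio of *Lama5* to *Lama1* per length was 0.239, 0.186 and 0.230 in the control against 0.116, 0.0878 and 0.129 in KO-labelled testes, again without overlap (p = 0.1, exact permutation, adjusted 0.217).

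Among the beta and gamma chains that complete the trimers, *Lamb1*, *Lamb2*, *Lamc1* and *Lamc3* rose. *Lamb1*, the beta chain of laminin-111, was at 413, 374 and 413 CPM in the control against 527, 522 and 492 CPM in KO-labelled testes (log2 fold change 0.36, SE 0.078, adjusted p = 0.00242). *Lamb2*, which takes the place of beta 1 in basement membranes of muscle, nerve and kidney, was at 190.4, 183 and 208 CPM in the control against 267, 307 and 310.4 CPM in KO-labelled testes (log2 fold change 0.60, SE 0.085, adjusted p = 8.47e-05). Both sets of values were apart between groups, and the ratio of *Lamb2* to *Lamb1* per length was 0.752, 0.798 and 0.822 in the control against 0.826, 0.959 and 1.03 in KO-labelled testes (p = 0.1, exact permutation, adjusted 0.217). *Lamc1*, the gamma chain of most laminins, was at 264, 276 and 264 CPM in the control against 358, 346 and 347 CPM in KO-labelled testes (log2 fold change 0.39, SE 0.072, adjusted p = 0.000866). All 3 KO-labelled values of *Lamc1* lay above all control values. *Lamc3*, a gamma chain found in fewer tissues, was at 234, 195 and 271 CPM in the control against 292, 328 and 325 CPM in KO-labelled testes (log2 fold change 0.43, SE 0.11, adjusted p = 0.00521). Per length *Lamc3* was as abundant as *Lamb1*, at 38.3 in the control and 51.7 CPM per kb in the KO-labelled group against 40.3 in the control and 51.8 CPM per kb in the KO-labelled group. The ratio of *Lamb1* to *Lamc1* was 1.30, 1.13 and 1.31 in the control against 1.23, 1.26 and 1.18 in KO-labelled testes, overlapping between groups.

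Collagen IV chains rose in 5 of 6 cases. *Col4a1* and *Col4a2*, the chains of the ubiquitous alpha 1, alpha 1, alpha 2 trimer, were the most abundant basement membrane genes per length and the pair whose promoter windows overlap above. *Col4a1* was at 500.0, 445 and 512 CPM in the control against 624, 587 and 584 CPM in KO-labelled testes (log2 fold change 0.30, SE 0.081, adjusted p = 0.00994). *Col4a2* was at 338, 313 and 401 CPM in the control against 458, 478 and 474 CPM in KO-labelled testes (log2 fold change 0.42, SE 0.091, adjusted p = 0.0025). For both genes the 3 KO-labelled libraries lay above the 3 control libraries, and the ratio of *Col4a1* to *Col4a2* per length was 1.31, 1.26 and 1.13 in the control against 1.21, 1.09 and 1.09 in KO-labelled testes, with overlap.

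*Col4a3* and *Col4a4* encode chains of the alpha 3, alpha 4, alpha 5 network, best known from the glomerulus of the kidney. *Col4a4* was at 351, 365 and 395 CPM in the control against 423, 435 and 453 CPM in KO-labelled testes and rose (log2 fold change 0.24, SE 0.078, adjusted p = 0.0279). *Col4a3* was at 287, 295 and 292 CPM in the control against 265, 309 and 321 CPM in KO-labelled testes and was not called (log2 fold change 0.034, SE 0.083, adjusted p = 0.791, 95% interval of the log2 fold change -0.14 to 0.21). The first KO-labelled library held the lowest *Col4a3* value of all 6. Per length the ratio of *Col4a3* to *Col4a4* was 0.872, 0.860 and 0.787 in the control against 0.667, 0.756 and 0.755 in KO-labelled testes, so the groups were apart (p = 0.1, exact permutation, adjusted 0.217).

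*Col4a5* and *Col4a6*, X-linked chains of which alpha 5 joins both remaining collagen IV networks, were expressed at lower levels. *Col4a5* was at 56.9, 64.1 and 66.1 CPM in the control against 92.3, 86.3 and 75.6 CPM in KO-labelled testes (log2 fold change 0.44, SE 0.095, adjusted p = 0.00233), with no overlap. *Col4a6* was at 26.2, 22.3 and 26.5 CPM in the control against 36.5, 36.1 and 25.5 CPM in KO-labelled testes (log2 fold change 0.39, SE 0.13, adjusted p = 0.0379), the third KO-labelled library lying among the control libraries. The ratio of *Col4a5* to *Col4a6* per length was 2.58, 3.41 and 2.96 in the control against 3.002, 2.84 and 3.52 in KO-labelled testes and overlapped.

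**Figure D3:**
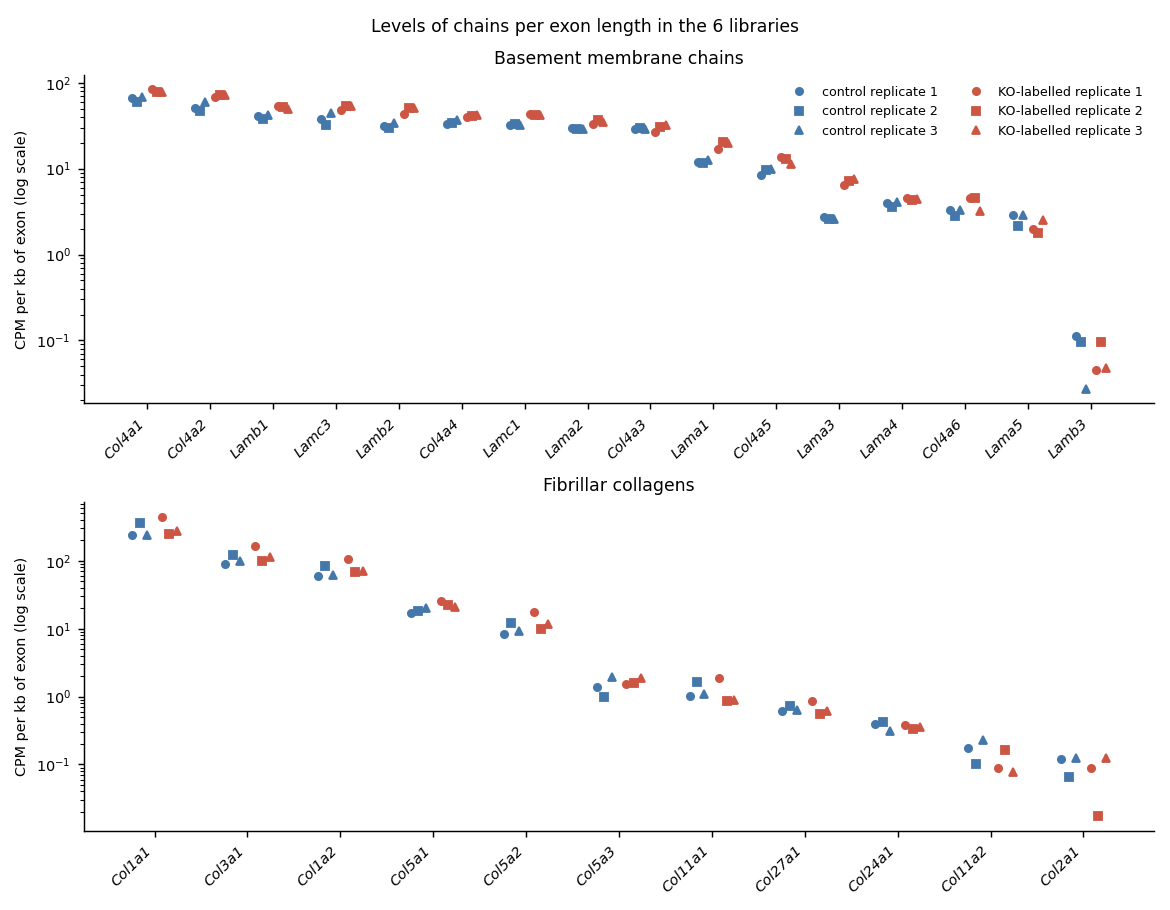
Level of 16 of the 17 basement membrane chains (upper panel) and of each fibrillar collagen (lower panel) in each of the 6 libraries, in CPM per kb of exon on a log axis, control libraries in blue and KO-labelled libraries in red, with the marker shape giving the replicate. Most basement membrane points of 1 group lie close together, with *Lamb3* the most scattered, whereas *Col1a1*, *Col3a1* and *Col1a2* are highest in control replicate 2 and KO-labelled replicate 1.

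In all, the groups of 13 of the 17 basement membrane chains did not overlap (76.5%), against 45.5% of all genes tested. The same held for 1 of 11 fibrillar collagens (9.09%) and 11 of 26 other collagens (42.3%). Over the 54 genes together the share was 46.3% (25 genes), near that of all genes. When each library was left out in turn, 9 of the 12 chains called higher kept the call in all 6 fits. *Col4a4* lost it in 3 fits, those without control replicate 1 and without the second or the third KO-labelled library (lowest log2 fold change 0.20), *Lama2* without control replicate 1 or the second KO-labelled library (lowest 0.23), and *Col4a6* in every fit but that without KO-labelled replicate 3 (lowest 0.31). Summed over the 17 chains, the level was 387, 365 and 412 CPM per kb in the control against 489, 509.7 and 505 CPM per kb in KO-labelled testes. Sertoli markers, whose cells lie on this membrane, summed to 4809.7, 4910.2 and 4552 CPM in the control against 7636, 7413 and 7584 CPM in KO-labelled testes, 1.59-fold higher on average, whereas the chains together were 1.29-fold higher. Peritubular myoid markers summed to 1307, 1302 and 1290.0 CPM in the control against 1100.4, 1133 and 1089 CPM in KO-labelled testes, with 0 of 8 called higher in edgeR (1 at an unadjusted p under 0.05, 0 in DESeq2) and 3 lower (*Acta2*, *Cnn1* and *Tagln*). Endothelial markers had 2 of 12 called higher and a median log2 fold change of 0.07. The part of these cell types in the change was not tested.

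The fibrillar collagens gave a different picture. *Col1a1* (chr11:94936224-94953042, GRCm38), the major chain of collagen I, had the highest level per length of all 55 genes, 281 in the control and 324 CPM per kb in the KO-labelled group. It was at 1574, 2374 and 1589.9 CPM in the control against 2956, 1613 and 1806 CPM in KO-labelled testes. Control replicate 2 was higher than 2 of the 3 KO-labelled libraries, and *Col1a1* was not called (log2 fold change 0.20, SE 0.19, adjusted p = 0.46). The second chain of collagen I, *Col1a2*, was at 743, 1041 and 768 CPM in the control against 1332, 841 and 890.3 CPM in KO-labelled testes (log2 fold change 0.26, SE 0.16, adjusted p = 0.222), in the same order of libraries within each group. The ratio of *Col1a1* to *Col1a2* per length was 4.01, 4.32 and 3.92 in the control against 4.20, 3.63 and 3.84 in KO-labelled testes and overlapped. *Col3a1*, the fibrillar collagen of soft tissue and vessel walls, was at 881, 1216 and 973 CPM in the control against 1631, 977 and 1116 CPM in KO-labelled testes (log2 fold change 0.28, SE 0.16, adjusted p = 0.196). Its 2 highest values were again control replicate 2 and KO-labelled replicate 1.

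*Col5a1*, the collagen V chain that nucleates collagen I fibrils, was the only fibrillar gene called. It was at 144, 155 and 170.4 CPM in the control against 218, 189 and 179 CPM in KO-labelled testes (log2 fold change 0.32, SE 0.092, adjusted p = 0.0143), without overlap, and lost the call when control replicate 1 was left out (log2 fold change 0.27, adjusted p = 0.102). Its partner *Col5a2* was at 80, 117 and 90.1 CPM in the control against 167, 96.6 and 114 CPM in KO-labelled testes and had a larger but more scattered difference (log2 fold change 0.39, adjusted p = 0.0877). *Col5a3* was at 6.64 to 13.2 CPM over the 6 libraries. The cartilage collagens *Col11a1* and *Col11a2* reached at most 23.7 and 1.57 CPM, and *Col2a1*, the fibrillar collagen of cartilage, at most 1.16 CPM. *Col24a1* and *Col27a1* lay at 2.34 to 3.25 and 7.33 to 11.2 CPM. None of these 6 was called, and their log2 fold changes ran from -0.62 to 0.21.

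The libraries of 1 group lay closer together for the basement membrane chains than for the other classes. For the basement membrane chains the median coefficient of variation (CV) was 6.75% over the control and 7.12% over the KO-labelled libraries. For the fibrillar collagens it was 20% and 27.8%, and for the other collagens 18.1% and 25.1%. All genes tested had medians of 11.5% and 12.8%. *Col1a1*, the most abundant per length, had CVs of 24.8% and 34.2%, and *Col4a1* of 7.40% and 3.77%. Both control replicate 2 and KO-labelled replicate 1 were the highest of their group for 7 of the 11 fibrillar collagens, for 12 of 26 other collagens and for 1 of 17 basement membrane chains, against 12.1% of all genes tested. KO-labelled replicate 1 was the highest of its group for 32 of the 54 genes (59.3%, against 32.6% of all genes). The summed fibrillar level was 418, 604 and 437 CPM per kb in the control against 772, 449 and 497 CPM per kb in KO-labelled testes, so the groups overlapped. The summed level of 7 stromal markers was 2033, 1981 and 1819.7 CPM in the control against 3285, 2461 and 2316 CPM in KO-labelled testes. KO-labelled replicate 1 was highest there too, but control replicate 2 was not above the other controls. Of these markers 3 were called higher (*Igf1*, *Pdgfra* and *Dcn*) and 1 lower (*Pi16*), and their part in the fibrillar values was not tested.

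**Figure D4:**
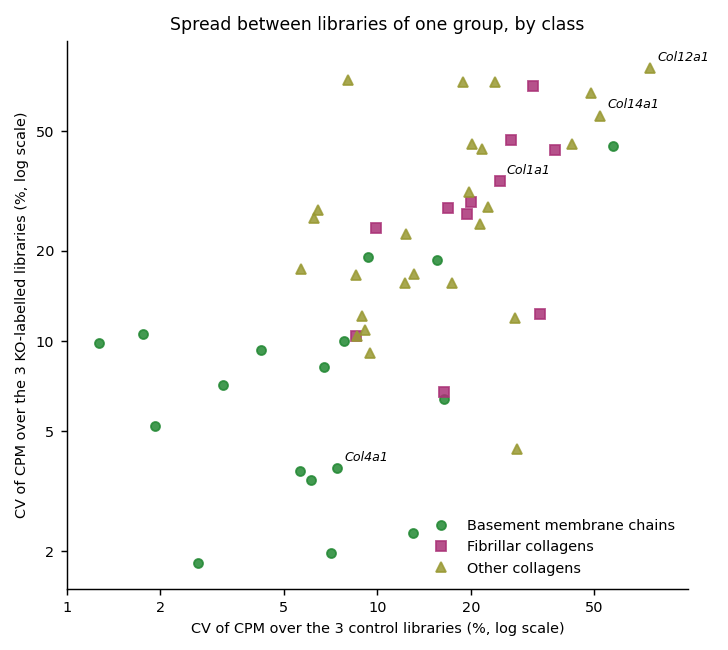
Coefficient of variation of CPM over the 3 control libraries (x axis) and the 3 KO-labelled libraries (y axis), both in percent on log axes, for the 54 genes tested, by class. Most basement membrane chains (green) lie towards the lower left, and *Col12a1* and *Col14a1* lie at the upper right.

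Without control replicate 2 and KO-labelled replicate 1, an alternative chosen after the values were seen, 20 genes were called higher and 1 lower, and 17 of the 21 genes called higher with all libraries were among the 20. The basement membrane count was then 11 and the fibrillar count 2, *Col1a2* and *Col5a2* having passed and *Col5a1* having dropped out. Without KO-labelled replicate 1 alone, the fold change of *Col1a1* turned to -0.10.

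**Figure D5:**
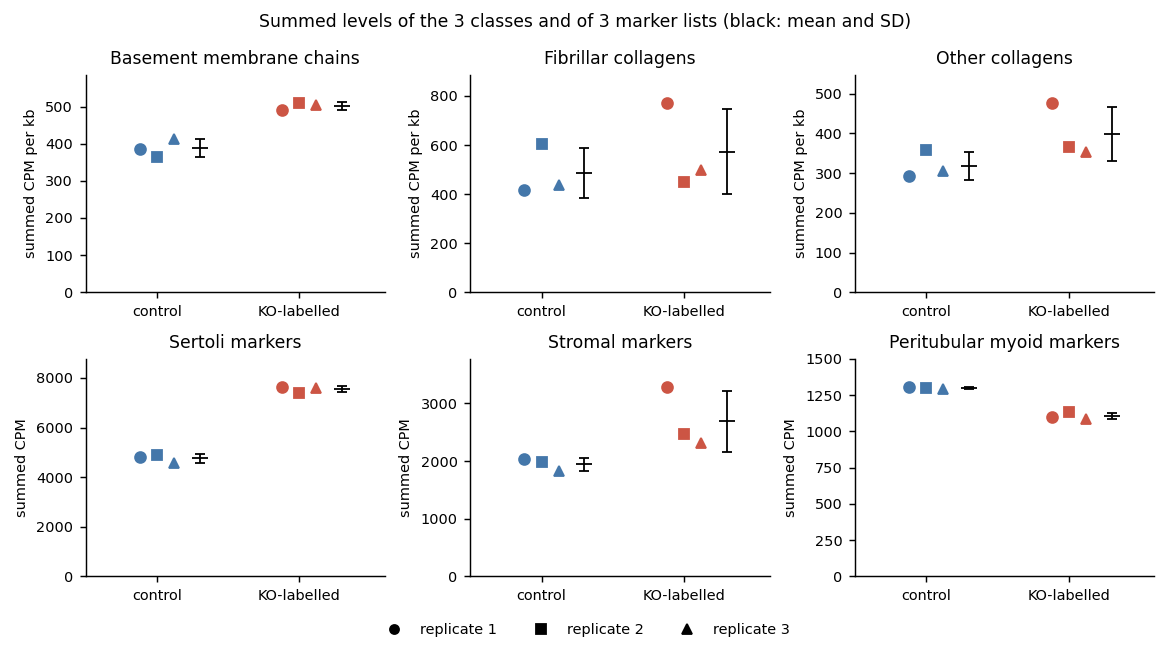
Summed level of each class (upper row, CPM per kb) and of 3 marker lists (lower row, CPM) in each library, with the mean and SD of the 3 libraries of each group in black. The basement membrane sums were 365 to 412 in the control and 489 to 510 CPM per kb in the KO-labelled libraries, while the fibrillar sums overlapped, at 418 to 604 and 449 to 772.

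Among the other collagens, the multiplexin *Col15a1* (chr4:47208161-47313167, GRCm38), which links basement membranes to the fibres around them, ranked 4 of the 55 genes in level per length. It was at 422, 442 and 394 CPM in the control against 785, 665 and 552 CPM in KO-labelled testes (log2 fold change 0.67, SE 0.11, adjusted p = 0.000275). The lowest KO-labelled library was well above the highest control library. Its relative *Col18a1*, the precursor of endostatin, was at 314, 305 and 359.7 CPM in the control against 358, 423 and 336 CPM in KO-labelled testes and was not called (log2 fold change 0.19, SE 0.10, adjusted p = 0.149). Counting *Col7a1*, *Col15a1* and *Col18a1* with the basement membrane chains, as their location would allow, gave 13 of 20 called higher. *Col7a1*, the collagen of anchoring fibrils, was at 3.53 to 4.38 CPM and was not called.

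Collagen VI forms beaded microfibrils between the interstitial fibres and the basement membrane. Its main chains were not called. *Col6a1* was at 421, 539 and 449.7 CPM in the control against 641, 475 and 498 CPM in KO-labelled testes (log2 fold change 0.19, SE 0.12, adjusted p = 0.222) and ranked 3 of the 55 genes per length. *Col6a2* was at 301, 431 and 323 CPM in the control against 538, 302 and 350.2 CPM in KO-labelled testes and *Col6a3* at 195, 281 and 192 CPM in the control against 356, 219 and 232 CPM in KO-labelled testes, with log2 fold changes of 0.17 and 0.27. All 3 were highest in control replicate 2 and KO-labelled replicate 1, as were *Col1a1*, *Col1a2* and *Col3a1*. The alternative chains *Col6a4* and *Col6a6* did rise. *Col6a4* was at 25.3, 24.05 and 21.4 CPM in the control against 36.5, 29.7 and 34.5 CPM in KO-labelled testes (log2 fold change 0.51, SE 0.11, adjusted p = 0.00254). *Col6a6* was at 26.5, 25.5 and 22.4 CPM in the control against 46.7, 35.1 and 35.8 CPM in KO-labelled testes (log2 fold change 0.66, SE 0.12, adjusted p = 0.000736). Neither overlapped between groups. *Col6a5* was at 20.9, 48.4 and 23.8 CPM in the control against 67.8, 16.7 and 32.9 CPM in KO-labelled testes, with a wide spread within both groups, and was not called (log2 fold change 0.33, adjusted p = 0.548).

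The FACITs, collagens that sit on the surface of other fibrils, moved in both directions. *Col9a3*, a chain of collagen IX, was at 3.77, 4.54 and 3.63 CPM in the control against 7.92, 10.2 and 10.7 CPM in KO-labelled testes (log2 fold change 1.27, SE 0.18, adjusted p = 8.31e-05), the second largest rise of the 54. Its partner chains were not called: *Col9a2* was at 3.20, 7.18 and 4.25 CPM in the control against 9.90, 4.83 and 4.77 CPM in KO-labelled testes, and *Col9a1* at 0.236 to 1.65 CPM had a fold change of -1.07 on the log2 scale (adjusted p = 0.108). *Col22a1*, a collagen of tissue junctions, fell from 7.14, 4.61 and 8.22 CPM in the control to 3.80, 4.55 and 3.67 CPM in KO-labelled testes (log2 fold change -0.73, SE 0.22, adjusted p = 0.018). *Col19a1* was under 1 CPM in every library (0.0467 to 0.894 CPM), was called lower, and kept that call among the 6 fits with a library left out only in that without KO-labelled replicate 1. *Col22a1* lost its call without control replicate 1 or control replicate 3 (weakest log2 fold change -0.54). *Col12a1* and *Col14a1*, which decorate collagen I fibrils, varied widely within the groups, *Col12a1* most of all 54 genes (CV 75.6% among control and 81.2% among KO-labelled libraries). *Col12a1* was at 14.7, 48.4 and 14.4 CPM in the control against 50.7, 7.38 and 22.9 CPM in KO-labelled testes, and *Col14a1* at 40.4, 94.1 and 41.5 CPM in the control against 93.8, 28.5 and 53.3 CPM in KO-labelled testes. Both were highest in control replicate 2 and KO-labelled replicate 1 of their groups, and neither was called, with log2 fold changes of 0.06 and -0.0068. *Col16a1* was at 25.1 to 41.9 CPM and *Col20a1* at 0.440 to 2.02 CPM, and neither was called (log2 fold change -0.96, adjusted p = 0.0697 for *Col20a1*, whose groups did not overlap).

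The transmembrane collagens, which are anchored in the cell membrane by their own chain, rose in 3 of 4 cases. *Col13a1*, a collagen of cell adhesions, was at 7.86, 6.92 and 8.29 CPM in the control against 11.99, 14.5 and 12.2 CPM in KO-labelled testes (log2 fold change 0.75, SE 0.15, adjusted p = 0.00118). *Col25a1*, known from motor neuron and muscle contacts, was at 4.03, 4.59 and 4.34 CPM in the control against 9.49, 6.75 and 5.63 CPM in KO-labelled testes (log2 fold change 0.75, SE 0.20, adjusted p = 0.0102). Both were apart between groups, and *Col25a1* lost its call without KO-labelled replicate 1 (0.53). *Col23a1* was at 17.3, 16.02 and 22.1 CPM in the control against 28.4, 26.9 and 20.9 CPM in KO-labelled testes (log2 fold change 0.46, SE 0.14, adjusted p = 0.0238), with the third KO-labelled library below the highest control, and it kept its call only without control replicate 3 or KO-labelled replicate 3 (lowest log2 fold change 0.38). *Col17a1*, the collagen of hemidesmosomes, was at 5.67, 5.01 and 8.38 CPM in the control against 8.50, 7.98 and 8.70 CPM in KO-labelled testes and was not called (log2 fold change 0.40, adjusted p = 0.126).

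*Col26a1*, a short collagen first described in testis and ovary, rose from 13.9, 12.7 and 16.1 CPM in the control to 31.05, 29.4 and 19.8 CPM in KO-labelled testes (log2 fold change 0.91, SE 0.16, adjusted p = 0.000472). KO-labelled replicate 3 was nearer to the controls than the other KO-labelled libraries. *Col28a1*, found around nerves, fell from 2.82, 2.80 and 1.89 CPM in the control to 1.49, 1.59 and 0.969 CPM in KO-labelled testes (log2 fold change -0.89, SE 0.30, adjusted p = 0.0322). It lost its call without control replicate 1, control replicate 2 or KO-labelled replicate 3 (weakest log2 fold change -0.69). The short-chain collagens *Col8a1* (0.514 to 3.44 CPM) and *Col8a2* (3.59 to 7.40 CPM) were not called. *Col10a1* had at most 0.136 CPM.

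The genes that make, bind and turn over these chains were followed in 4 lists. Of 33 genes for collagen synthesis and cross-linking, 13 rose and 1 fell (median log2 fold change 0.25). The smallest adjusted p belonged to *Plod2*, a lysyl hydroxylase (log2 fold change 0.57, adjusted p = 4.18e-05), and *Pcolce*, an enhancer of procollagen cleavage (log2 fold change 0.64, adjusted p = 0.000459). *P4ha3*, a prolyl hydroxylase subunit, fell (log2 fold change -1.26, adjusted p = 0.00941). Of 17 other basement membrane components, 7 rose and 2 fell (median 0.14). *Ntn4*, a netrin that binds laminin (log2 fold change 0.66, adjusted p = 5.01e-05), and *Smoc1*, a SPARC relative (log2 fold change 0.48, adjusted p = 0.00124), led the rise. *Fbln1*, a fibulin (log2 fold change -0.28, adjusted p = 0.0274), and *Npnt*, a ligand of integrin alpha 8 (log2 fold change -0.37, adjusted p = 0.0426), fell.

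Of 16 receptors of collagen and laminin, 6 rose and 1 fell (median 0.16). *Itga6*, the alpha chain of the laminin receptors on spermatogonia and epithelia, was at 152, 179 and 158 CPM in the control against 233, 266 and 283 CPM in KO-labelled testes (log2 fold change 0.68, SE 0.091, adjusted p = 5.72e-05). *Dag1*, dystroglycan, was at 498, 498 and 537 CPM in the control against 651, 746 and 733 CPM in KO-labelled testes (log2 fold change 0.47, SE 0.081, adjusted p = 0.00044). *Itga1*, a collagen receptor chain, fell (log2 fold change -0.38, adjusted p = 0.0305). Of 20 matrix metalloproteases and inhibitors, 15 were tested, 8 rose and 0 fell (median 0.47), with 0 lower also at an unadjusted p under 0.05 in edgeR and in DESeq2. *Mmp14*, a membrane-bound collagenase, was at 101, 99.9 and 121 CPM in the control against 178, 193 and 166 CPM in KO-labelled testes (log2 fold change 0.74, SE 0.092, adjusted p = 3.1e-05), and *Mmp2*, a gelatinase that cleaves collagen IV, at 35.2, 45.8 and 39 CPM in the control against 80.9, 57.1 and 67.03 CPM in KO-labelled testes (log2 fold change 0.77, SE 0.13, adjusted p = 0.000283). Neither overlapped between groups. The shares called higher in the 4 lists, 37.5% to 53.3%, stand against 16.2% of all genes and 20.2% of protein-coding genes. They are shares under TMM, and the lists were not counted under the other scalings.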

How the data were processed

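Total RNA of whole testes was sequenced after library preparation with random and poly(T) priming, strand selection and depletion of abundant transcripts. Per the labels and the header of the deposited table, the authors used cutadapt for trimming, HISAT2 for alignment to GRCm38.p5, and featureCounts 1.6.4 over GENCODE M18 for strand-specific counting per gene. The authors deposited raw counts per gene, with no normalization, for 3 control and 3 KO-labelled libraries (0 columns of library values were left unused), and the exon length of each gene as another column. Multi-mapped reads were left out by the counter. Groups came from the titles. The study calls the libraries biological replicates.

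Symbols and biotypes came from GENCODE M21, which named 54165 of 54232 rows. For 54 of the 55 collagen and laminin genes its start and end equal those of the deposited table. Counts were tested with edgeR 4.0.16 (TMM factors, filterByExpr, glmQLFit and glmQLFTest, R 4.3.3) on the whole table, and Benjamini-Hochberg adjusted p under 0.05 was called. Whole-table steps were tested on simulated data. DESeq2 1.42.0, other scalings (RLE factors, markers of 6 somatic cell types, Sertoli markers), other filters on low counts, a replicate block, each library left out and a wider basement membrane class were alternatives. Analyses in Python 3.11.15 used pandas 2.3.3, scipy 1.17.1 and matplotlib 3.10.9. CPM per kb is TMM-scaled CPM divided by exon length. Totals of 33325483 to 44956193 counts make counting error small above a few CPM, and the spread between libraries sets the precision elsewhere.

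Values in every library and a test are given for every called gene, the 3 genes of highest level per length in each class, the chains of the main trimers and the collagen IV pairs. Called genes under a mean of 1 CPM in both groups are given by their range. Of the other matrix lists the 2 genes of smallest adjusted p in each direction are named. Further genes were named after their values were seen. Genes, classes and lists were chosen with earlier results of these data known, so they are no independent evidence. No set test was run. Values of 1 of the tested genes are not reported here, and the gene stays in all counts and sums.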

Additional observations from a re-analysis of the deposited data

How the results depend on the processing

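With libraries scaled to the somatic markers, 3 genes were called higher and 16 lower (5.56% and 29.6%, against 1.62% and 49.6% of all genes), made up of 1 and 4 basement membrane chains, 0 and 2 fibrillar collagens and 2 and 10 other collagens. Scaled to Sertoli markers, 2 were called higher and 29 lower (3.7% and 53.7%, against 0.748% and 63.9%), made up of 1 and 9 basement membrane chains, 0 and 8 fibrillar collagens and 1 and 12 other collagens. The whole-table median moved by construction, as given above. Under somatic scaling the log2 fold changes that turned in sign were, for basement membrane chains, -0.19 for *Col4a1*, -0.069 for *Col4a2*, -0.45 for *Col4a3*, -0.25 for *Col4a4*, -0.053 for *Col4a5*, -0.11 for *Col4a6*, -0.22 for *Lama2*, -0.31 for *Lama4*, -0.13 for *Lamb1*, -0.11 for *Lamc1* and -0.055 for *Lamc3*. For fibrillar collagens they were -0.30 for *Col1a1*, -0.24 for *Col1a2*, -0.47 for *Col27a1*, -0.22 for *Col3a1*, -0.18 for *Col5a1*, -0.11 for *Col5a2* and -0.29 for *Col5a3*, and for other collagens -0.46 for *Col12a1*, -0.37 for *Col16a1*, -0.10 for *Col17a1*, -0.30 for *Col18a1*, -0.041 for *Col23a1*, -0.30 for *Col6a1*, -0.33 for *Col6a2*, -0.23 for *Col6a3*, -0.19 for *Col6a5*, -0.45 for *Col8a2* and -0.10 for *Col9a2*. Under Sertoli scaling they were -0.37 for *Col4a1*, -0.25 for *Col4a2*, -0.63 for *Col4a3*, -0.43 for *Col4a4*, -0.23 for *Col4a5*, -0.28 for *Col4a6*, -0.013 for *Lama1*, -0.40 for *Lama2*, -0.48 for *Lama4*, -0.31 for *Lamb1*, -0.064 for *Lamb2*, -0.28 for *Lamc1* and -0.24 for *Lamc3* among basement membrane chains. Fibrillar collagens that turned were at -0.46 for *Col1a1*, -0.40 for *Col1a2*, -0.63 for *Col27a1*, -0.39 for *Col3a1*, -0.35 for *Col5a1*, -0.27 for *Col5a2* and -0.47 for *Col5a3*, and other collagens at -0.60 for *Col12a1*, -0.53 for *Col16a1*, -0.28 for *Col17a1*, -0.48 for *Col18a1*, -0.21 for *Col23a1*, -0.47 for *Col6a1*, -0.49 for *Col6a2*, -0.39 for *Col6a3*, -0.16 for *Col6a4*, -0.34 for *Col6a5*, -0.00582 for *Col6a6*, -0.61 for *Col8a2* and -0.25 for *Col9a2*.

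RLE factors and a minimum of 10 counts in every library kept all 21 calls of a rise, and protein-coding genes alone kept 20. Without a filter on low counts 26 genes were called higher, 4 of them fibrillar. With DESeq2 1 gene was called lower, of the class of other collagens, and *Col19a1* and *Col28a1* lost their calls. Values near 0 changed sign elsewhere: 0.00426 for *Col14a1* with RLE factors, 0.012 for *Col14a1* and 0.00856 for *Col7a1* without a filter, 0.014 for *Col14a1* and 0.00424 for *Col7a1* with DESeq2, and -0.00296 for *Col27a1* and -0.00119 for *Col4a3* with protein-coding genes only. The replicate numbers are not stated to pair the libraries. Deviations from the group mean in libraries of the same number had correlations of -0.0014, -0.0126 and 0.0139 across genes. These correlations cannot tell whether animals of the same number were littermates. With the replicate number as a block 21 genes were called higher and 4 lower, of which 1 was a basement membrane chain, *Lama5*, and *Col8a2* came to -0.015. With collagens VII, XV and XVIII added, 13 basement membrane chains and 7 other collagens were called higher.

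With each library left out in turn, 16 to 21 genes were called higher and 0 to 5 lower. These were 9 to 11 and 0 to 1 basement membrane chains, 0 to 2 and 0 fibrillar collagens, and 6 to 9 and 0 to 5 other collagens. The lowest counts came without control replicate 1 (16 higher, 0 lower, no fibrillar collagen). Of the 24 calls, 15 held in all 6 fits. Signs turned in at least 1 such fit for genes near 0 or with a wide spread, whose ranges, including the fit without 2 libraries given next, were -0.49 to 0.24 for *Col11a1*, -0.77 to 0.93 for *Col12a1*, -0.52 to 0.56 for *Col14a1*, -0.066 to 0.31 for *Col16a1*, -0.10 to 0.47 for *Col1a1*, -0.21 to 0.062 for *Col24a1*, -0.17 to 0.16 for *Col27a1*, -0.97 to 0.048 for *Col2a1*, -0.012 to 0.15 for *Col4a3*, -0.10 to 0.39 for *Col6a2*, -0.32 to 0.85 for *Col6a5*, -0.079 to 0.10 for *Col7a1*, -0.37 to 0.27 for *Col8a2*, -0.018 to 0.84 for *Col9a2* and -0.73 to 0.086 for *Lamb3*. Without control replicate 2 and KO-labelled replicate 1 together, chosen after seeing the data, 1 gene was called lower, 2 fibrillar and 11 basement membrane genes higher, and signs turned at 0.024 for *Col14a1*, -0.022 for *Col16a1*, 0.000846 for *Col24a1*, -0.066 for *Col27a1*, 0.056 for *Col7a1*, -0.17 for *Col8a2* and 0.086 for *Lamb3*. The cause of these changes was not tested. Depth limits genes under about 1 CPM, such as *Col2a1*, *Col19a1* and *Lamb3*.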

Other observations

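Leydig cell and macrophage markers, whose cells lie in the interstitium among the collagen fibres, were also higher in the KO-labelled libraries. Of 6 Leydig markers 4 were called higher (median log2 fold change 0.51, summed mean level 397 against 541 CPM), and of 8 macrophage markers 5 (median 0.45, summed mean level 153 against 214 CPM). Erythroid markers, a sign of blood in the sample, had 0 of 3 tested called in edgeR's quasi-likelihood test (1 lower at an unadjusted p under 0.05, 0 in DESeq2), and summed to a mean of 15.7 CPM in the control and 12.6 CPM in the KO-labelled group. The share of basement membrane chains in the summed level per length of all 55 genes was 35.2%, 27.5% and 35.7% in the control and 28.2%, 38.5% and 37.3% in the KO-labelled libraries. It was thus lowest in control replicate 2 and KO-labelled replicate 1, the libraries with the most fibrillar collagen, and the groups overlapped.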
